A study of Sus scrofa with 24 samples.

Results

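Small RNA was sequenced from intramuscular adipocytes (IMF) before and after the first 2 days of induced differentiation. The 6 libraries described here, of 24 in the series, are 3 of IMF-0d and 3 of IMF-2d, chosen by the source and the day in their labels. IMF cells were cultured from the longissimus dorsi muscle of 6-day-old Yorkshire piglets, the labels give no genetic change in any group, and IMF-0d is the preadipocyte culture collected before induction. IMF-2d is the culture after 2 days in induction medium, which holds 3-isobutyl-1-methylxanthine (IBMX), dexamethasone, insulin and serum. The back subcutaneous fat cultures (BF-0d and BF-2d, 3 libraries each), cultured and induced by the same protocol, serve for the one comparison between sources. The cells came from 3 piglets, but the labels do not link a library to a piglet, so a p-value measures the spread between libraries, which may be partly technical.

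The deposited table holds 1587 miRNA entries. Those whose mean over its 24 libraries reached 1 TPM were tested, 430 in number, 270 of them known (names with ssc-) and 160 new predictions (names with novel_miR_). A TPM value gives how many of 1000000 miRNA reads of a library belonged to an entry. Between 9143123 and 10660893 reads were counted per library, so that 1 read was worth 0.0938 to 0.109 TPM, and 3 reads, taken as the floor, 0.281 to 0.328 TPM. These floors cover counting error only, since copies of one molecule made by PCR cannot be told from separate molecules. A value is a share of one total, and ssc-miR-21-5p alone took 51.1% to 60.5% of the reads.

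A miRNA is a short RNA that guides the Argonaute protein to messenger RNAs, mostly through its seed (bases 2 to 8), and lowers their translation or stability. Confluent preadipocytes that receive the induction cocktail switch on C/EBPβ and C/EBPδ early, can go through further rounds of division known as mitotic clonal expansion, and later leave the cell cycle and switch on PPARγ. IBMX raises cAMP, dexamethasone activates the glucocorticoid receptor and insulin feeds the growth pathways, and several miRNAs are known to favour or hold back this early step. Protein-coding markers of adipocytes are not in these files and were not analysed here.

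The sequences below are the mature miRNAs on which the results turn, written 5′ to 3′ with the seed in capitals. They are the letters that the study lists for these entries, and of the 41 entries named under the rule for naming, 39 have such a sequence. All 26 that RefSeq also annotates under the same name in Sscrofa11.1 have the same letters there. The first set holds the miRNAs that lay lower on day 2, with ssc-miR-146a-5p shown because it shares its seed with ssc-miR-146b, and ssc-miR-452 because it lies in the same intron as ssc-miR-224.
ssc-miR-146b: uGAGAACUgaauuccauaggc
ssc-miR-146a-5p: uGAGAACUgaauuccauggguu
ssc-miR-224: cAAGUCACuagugguuccguuua
ssc-miR-452: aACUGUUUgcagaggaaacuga
ssc-miR-7-5p: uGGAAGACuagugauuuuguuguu
ssc-miR-135: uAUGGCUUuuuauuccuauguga
novel_miR_542: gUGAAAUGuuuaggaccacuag
novel_miR_143: uAGCUCUGauuugacccccagc

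The second set holds those that lay higher on day 2. ssc-miR-129b and ssc-miR-129a-5p have the same letters and are shown once, and ssc-miR-23b is shown beside its seed partner ssc-miR-23a.
ssc-miR-129b: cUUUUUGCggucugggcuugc
ssc-miR-27b-3p: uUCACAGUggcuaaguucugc
ssc-miR-23b: aUCACAUUgccagggauuacca
ssc-miR-23a: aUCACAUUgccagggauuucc
ssc-miR-6782-3p: uGACCUCUggucucccgcccug
ssc-miR-328: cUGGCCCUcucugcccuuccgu
ssc-miR-218: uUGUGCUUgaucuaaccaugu

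The third set holds further miRNAs for which IMF and BF differed in their change over these days.
ssc-miR-210: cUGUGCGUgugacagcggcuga
ssc-miR-381-3p: uAUACAAGgacaagcucucugu
novel_miR_716: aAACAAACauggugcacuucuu
novel_miR_461: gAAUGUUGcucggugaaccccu
novel_miR_326: cAGCAAUGauggaucugagc

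The letters of novel_miR_542 are those known as miR-203 in other mammals, a miRNA of stratified epithelia. Those of novel_miR_716 and novel_miR_461 are known as miR-495 and miR-409-3p, both from the imprinted DLK1-DIO3 region that also encodes miR-381. In Sscrofa11.1 each of these 3 new entries has 1 exact copy, on scaffolds not placed on a chromosome. By contrast, novel_miR_143 has 173 exact copies, and the sequence shared by novel_miR_326, novel_miR_433, novel_miR_930 and novel_miR_1018 has 43, so that their reads cannot be given to one locus.

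The libraries were much alike, and 1 day 0 library lay nearer to day 2 than the others. Over the 430 entries on the log2(TPM + 1) scale, Pearson's r between libraries was at least 0.9905 in every pair, and it was 0.9952 between replicates 1 and 3 of IMF-0d. Replicate 2 of IMF-0d had a mean r of 0.9915 with the other day 0 libraries and of 0.9924 with the day 2 libraries. It lay at 0.23 on the first principal component (37.5% of the variance), between -4.49 and -4.66 for the other day 0 libraries and 2.26 to 3.71 for day 2. Its mean r with all 5 other libraries was 0.992, against 0.9919 to 0.9934 for the rest. On the second component (24.6% of the variance) it lay alone at 5.7. Values without it are given below for many of the entries and lists described, but not for all. Since it is the day 0 library nearest to day 2 on the first component, leaving it out widens the distance between the days on that component by construction. Markers of other cells were few in kind: the 7 entries of the skeletal muscle list, of which 3 were tested, summed to 910 to 1739 TPM on day 0 and 814 to 1065 TPM on day 2, nearly all of it ssc-miR-1, and their part in the results was not tested. The blood and endothelial list summed to 19.9 to 42.3 TPM on day 0 and 26.2 to 28.8 TPM on day 2, and the epithelial list, which holds the miR-200 family, miR-141 and miR-205, had no entry that passed the filter (summed level at most 0.74 TPM in any library). That list does not hold miR-203, whose letters novel_miR_542 has. This entry of stratified epithelia stood at 423 to 567 TPM on day 0 and 236 to 275 TPM on day 2, and what part other cells have in it was not tested.

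**Figure D1:**
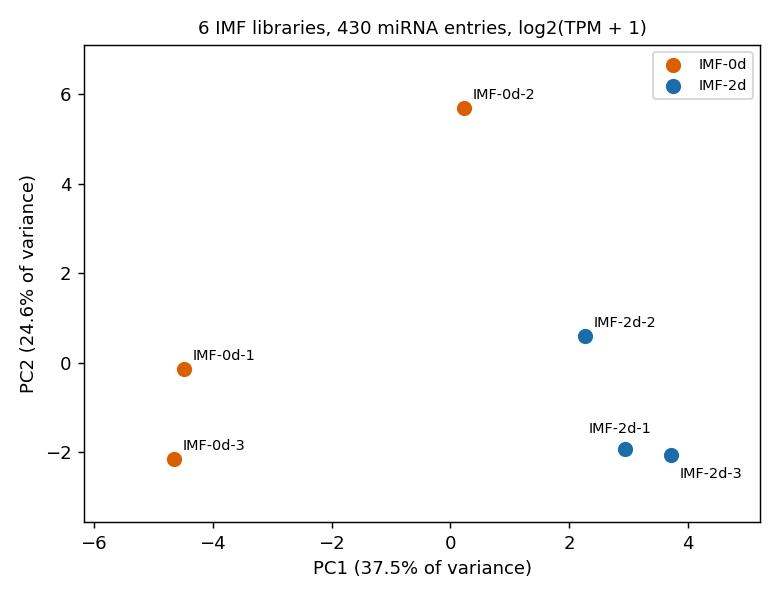
First and second principal components of the 6 IMF libraries over 430 entries on the log2(TPM + 1) scale, 1 point per library. IMF-0d replicate 2 sits at 0.23 on the first component, between the other day 0 libraries (-4.49 and -4.66) and the day 2 libraries (2.26 to 3.71), and alone at 5.7 on the second.

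The change from IMF-0d to IMF-2d was small for most miRNAs. The fold change stayed within 1.5 for 412 of the 430 entries (95.8%), 3 entries passed 2-fold, and the median log2 fold change was 0.0149 with a median SE of 0.172. A DE-miRNA had to pass both a fold change of 1.5 and an FDR of 0.05 after Benjamini-Hochberg adjustment, and limma called 0 (0% of the 430). An unadjusted p under 0.05 was reached by 68 entries, 32 higher and 36 lower on day 2. The smallest adjusted p was 0.0642, for ssc-miR-146b.

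On the whole reads recovered from the table, edgeR's quasi-likelihood test called 7 entries (1.63%), all of them lower on day 2, and DESeq2 called 9 of the 403 to which it gave an adjusted p (2.23%), 7 of them lower. The tools shared 6 entries and 10 were called by either. Without replicate 2 of IMF-0d, limma called 12 (2.79%), 9 of them lower. Of these, novel_miR_459, novel_miR_575, novel_miR_71, novel_miR_786, ssc-miR-7141-5p and ssc-miR-769-5p were called neither by edgeR nor by DESeq2 on all 6 libraries and are not described further.

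The libraries of the days did not overlap for 85 entries, 39 higher on day 2 (9.07% of the 430) and 46 lower (10.7%). Such entries are called separated below, and an exact two-sided permutation test gives each of them p = 0.1, the smallest that 3 against 3 libraries allow. Without replicate 2 of IMF-0d their number was 160. A fold change above 1.5 was found for 16 separated entries, 5 higher and 11 lower.

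**Figure D2:**
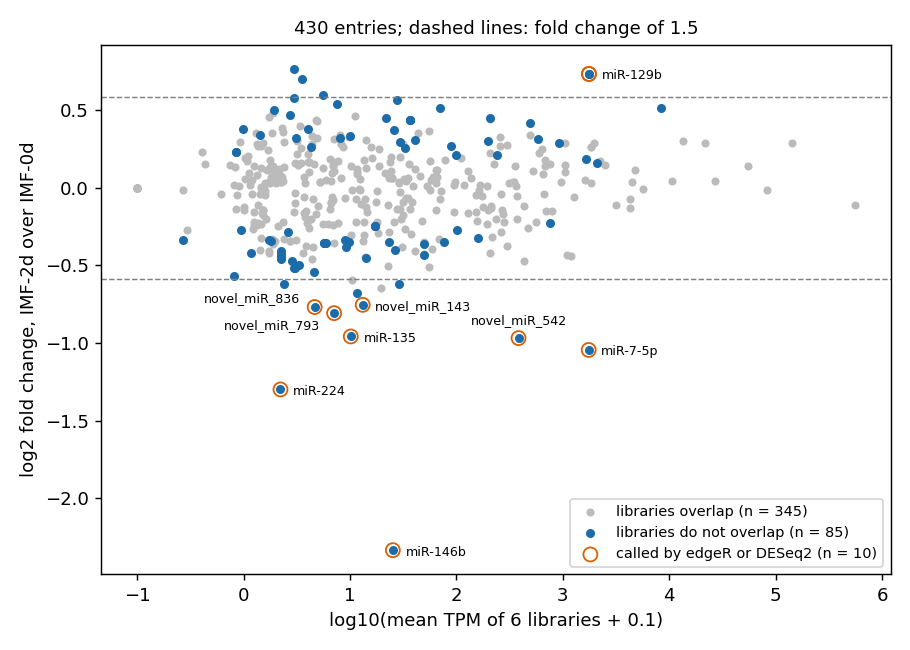
Log2 fold change from IMF-0d to IMF-2d on the log2(TPM + 1) scale against the mean level of the 6 libraries, for 430 entries; blue points are the 85 separated entries and orange rings the 10 called by edgeR or DESeq2. Most points lie between the dashed lines at a fold change of 1.5, and ssc-miR-146b lies farthest out at -2.34.

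The largest change was that of ssc-miR-146b, which was lower on day 2. This miRNA is transcribed under NF-κB, restrains TRAF6 and IRAK1 in inflammatory signalling, and has been reported to favour adipogenesis. Its mature form lies on chromosome 14 of Sscrofa11.1 (chr14:113446874-113446894, plus strand) in the exon of MIR146B. It stood at 47.3, 32.4 and 48.2 TPM on day 0 and at 7.59, 9.85 and 5.61 TPM on day 2. Every day 2 library was thus far below every day 0 library, and replicate 2 of day 0 was the lowest of its group. The mean was 5.54-fold lower on day 2 (42.6 ± 8.88 against 7.68 ± 2.12 TPM, SD, n = 3 each). The log2 fold change was -2.34 with an SE of 0.25 (95% interval -2.97 to -1.70), and the adjusted p was 0.0642 by limma, 8.99e-06 by edgeR and 6.55e-22 by DESeq2. Over the 16 alternatives the log2 fold change ranged from -2.55 to -2.15 with adjusted p from 6.55e-22 to 0.22, and without replicate 2 of IMF-0d it was -2.52 with a limma adjusted p of 0.0205.

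The later IMF libraries were not used in this comparison and show where day 2 lies. ssc-miR-146b was at 41.9, 34.7 and 27.7 TPM on day 4 and at 151, 124 and 114 TPM on day 8, so that the day 2 libraries were the lowest of the course. Its seed partner ssc-miR-146a-5p, also under NF-κB, stood at 55.6, 59.9 and 51.8 TPM on day 0 and at 38.6, 46.3 and 44.7 TPM on day 2. It too was separated, with a log2 fold change of -0.36 (SE 0.11, limma adjusted p = 0.263). By day 8 it had 985, 682 and 557 TPM.

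ssc-miR-224 lay 4.03-fold lower on day 2 by its means, but at a level of few reads. It is encoded with ssc-miR-452 in an intron of GABRE (chrX:123283478-123283500 and chrX:123284528-123284549, minus strand) and is reported to act on early adipocyte differentiation. It had 40, 36 and 24 reads on day 0 (3.75, 3.94 and 2.49 TPM) and 6, 16 and 3 reads on day 2 (0.599, 1.61 and 0.318 TPM). The groups did not overlap, and the lowest day 2 library was at the floor of 3 reads. The log2 fold change was -1.30 (SE 0.29), with adjusted p = 0.146 by limma, 0.0297 by edgeR and 0.0106 by DESeq2, and -1.21 without replicate 2 of IMF-0d (limma adjusted p = 0.14). ssc-miR-452 had 2.35, 1.86 and 1.87 TPM on day 0 and 1.60, 1.51 and 1.06 TPM on day 2, a log2 fold change of -0.34 (SE 0.12, limma adjusted p = 0.266). Both miRNAs of the intron were lower on day 2 in these libraries, and on day 8 they stood at 12.1 to 20.5 and 22.6 to 28.9 TPM.

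ssc-miR-7-5p, a miRNA best known from neurons and endocrine cells, was the most abundant miRNA among those called by either count tool and lower on day 2. Its mature sequence has 2 annotated loci, MIR7-1 on chromosome 1 (chr1:191218615-191218638, minus strand) and MIR7-2 in an intron of HNRNPK on chromosome 10 (chr10:30986202-30986225, plus strand). The values were 2737, 1586 and 2816 TPM on day 0 and 1022, 1129 and 1204 TPM on day 2. Replicates 1 and 3 of day 0 were far above all day 2 libraries, while replicate 2 lay between. The log2 fold change was -1.04 (SE 0.24), with adjusted p = 0.155 by limma, 0.00616 by edgeR and 3.64e-06 by DESeq2, and -1.31 without replicate 2 of IMF-0d (limma adjusted p = 0.00778).

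novel_miR_542, the entry with the letters of miR-203, had 536, 423 and 567 TPM on day 0 and 262, 236 and 275 TPM on day 2. All day 2 libraries were lower, by 1.97-fold in the means. The log2 fold change was -0.97 (SE 0.13, 95% interval -1.30 to -0.64), with adjusted p = 0.0725 by limma, 0.0042 by edgeR and 7.4e-08 by DESeq2. Without replicate 2 of IMF-0d it was -1.09 and was called by limma (adjusted p = 0.0135). ssc-miR-135, whose human counterpart targets APC of the Wnt pathway, had 16.1, 11.05 and 13.6 TPM on day 0 and 6.69, 7.64 and 5.19 TPM on day 2. It is annotated at 2 loci, MIR135-1 (chr13:34441130-34441152) and MIR135-2 (chr5:86141240-86141262), both on the minus strand. Its log2 fold change was -0.96 (SE 0.20) and the adjusted p was 0.126 by limma, 0.00864 by edgeR and 0.00402 by DESeq2, with -1.09 and a limma adjusted p of 0.0743 without replicate 2 of IMF-0d.

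The other new entries called by a count tool were novel_miR_793, novel_miR_836 and novel_miR_143. novel_miR_793 was at 7.58 to 10.1 TPM on day 0 and 3.80 to 5.51 TPM on day 2, and was called by both count tools. novel_miR_836 was at 4.59 to 6.75 TPM on day 0 and 2.54 to 3.42 TPM on day 2, and was called by edgeR (adjusted p = 0.0478). novel_miR_143 had 20.2, 10.7 and 19.6 TPM on day 0 and 10.2, 8.14 and 9.43 TPM on day 2, and was called by DESeq2 (adjusted p = 0.0406). Its replicate 2 of day 0 lay close to day 2, and without that library it was called by limma as well (-1.03, adjusted p = 0.0377).

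Among known entries whose mean reached 10 TPM, 5 further entries were separated and lower on day 2 under the rule for naming, beside ssc-miR-146b, ssc-miR-7-5p and ssc-miR-135 above. The log2 fold changes were -0.68 for ssc-miR-3613, -0.45 for ssc-miR-18a of the miR-17-92 cluster, -0.43 for ssc-miR-145-3p, -0.40 for ssc-miR-130a and -0.36 for ssc-miR-146a-5p, with limma adjusted p from 0.263 to 0.337. ssc-miR-145-3p and ssc-miR-145-5p come from one hairpin in an intron of IL17B on its antisense strand, and miR-145 is known for the contractile state of smooth muscle. The 5p arm, at 1457, 947 and 1787 TPM on day 0 and 897, 1048 and 1055 TPM on day 2, overlapped between the days, with a log2 fold change of -0.44 (SE 0.24, limma adjusted p = 0.459). Without replicate 2 of IMF-0d it was -0.69 (limma adjusted p = 0.0788) and without replicate 3 it was -0.24. ssc-miR-130a, which targets PPARG, stood at 26.5, 27.3 and 35.9 TPM on day 0 and at 23.9, 21.6 and 21.4 TPM on day 2.

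**Figure D3:**
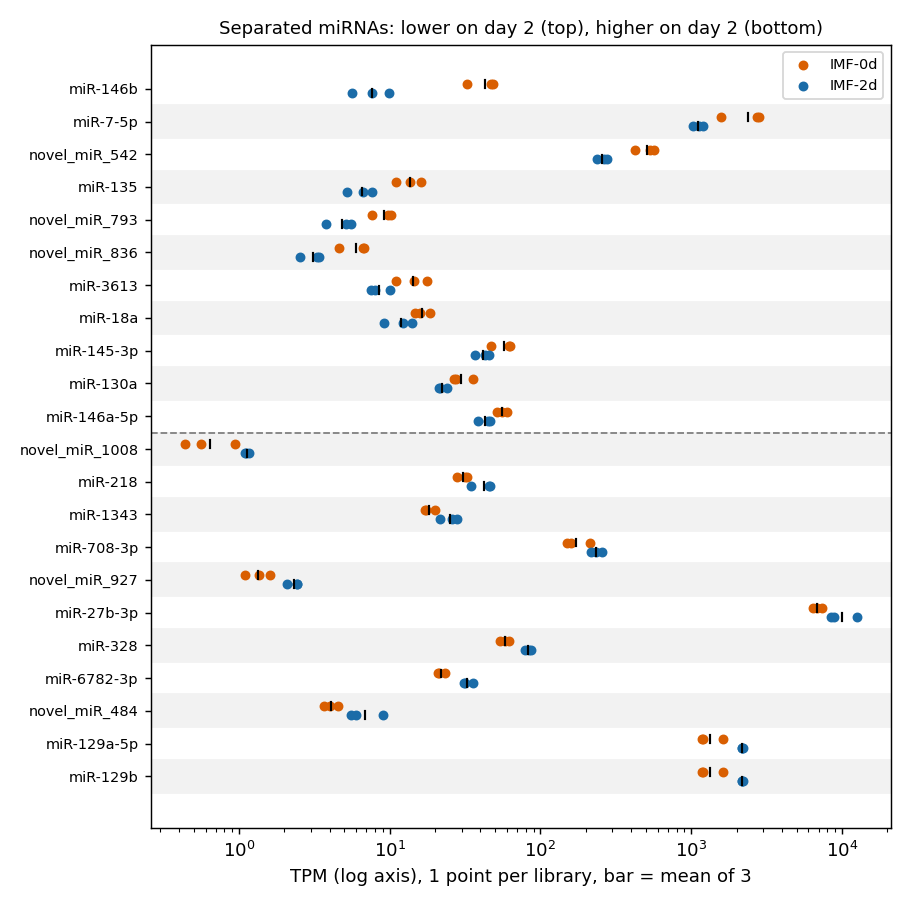
TPM (log axis) of the separated miRNAs chosen by the rule for naming, 1 point per library and a bar at the mean of 3. Entries above the dashed line were lower on day 2, with ssc-miR-146b farthest apart (32.4 to 48.2 against 5.61 to 9.85 TPM), and entries below it were higher, with ssc-miR-129b at 1173 to 1617 against 2166 to 2221 TPM.

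Among separated known miRNAs whose mean reached 10 TPM, the largest fold change upwards was that of ssc-miR-129b and ssc-miR-129a-5p, which share one mature sequence and thus their reads. They are encoded on chromosome 18 (chr18:20157266-20157286) and chromosome 2 (chr2:18724269-18724289), both on the minus strand, and the reads cannot be divided between these loci. ssc-miR-129b had 1173, 1617 and 1199 TPM on day 0 and 2179, 2221 and 2166 TPM on day 2. The day 2 libraries lay close together, and replicate 2 of day 0 lay between the groups. The mean was 1.65-fold higher (1330 ± 249 against 2189 ± 28.3 TPM, SD, n = 3 each). The log2 fold change was 0.73 (SE 0.14, 95% interval 0.39 to 1.08), with adjusted p = 0.119 by limma, 0.0927 by edgeR and 0.00402 by DESeq2, and without replicate 2 of IMF-0d it was 0.88 (limma adjusted p = 0.00381). On day 4 it stood at 1297, 1853 and 1532 TPM and on day 8 at 3310 to 3878 TPM.

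ssc-miR-27b-3p, which targets PPARG and is reported to hold back adipogenesis, was the only separated entry among the 10 most abundant. It had 6449, 6790 and 7428 TPM on day 0 and 8883, 8447 and 12579 TPM on day 2. Replicate 3 of day 2 was well above the others. The log2 fold change was 0.51 (SE 0.17), with a limma adjusted p of 0.265, and without that library it was 0.33 (limma adjusted p = 0.564). It is encoded with ssc-miR-23b in an intron of C10H9orf3 (chr10:27079971-27079991 and chr10:27080206-27080227, minus strand). ssc-miR-23b had 452, 398 and 405 TPM on day 0 and 499, 522 and 664 TPM on day 2 (log2 fold change 0.42, SE 0.13), so that the clustered pair was higher on day 2 in every library. ssc-miR-23a, its seed partner on chromosome 2 (chr2:65308158-65308178, plus strand), was separated too, at 758 to 883 TPM on day 0 and 948 to 1091 TPM on day 2. The other arm of the ssc-miR-27b-3p hairpin, ssc-miR-27b-5p, overlapped, at 11.2 to 17.5 TPM on day 0 and 9.25 to 12.9 TPM on day 2. ssc-miR-27a, the seed partner of ssc-miR-27b-3p, overlapped as well, at 573 to 719 TPM on day 0 and 544 to 785 TPM on day 2.

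ssc-miR-6782-3p and ssc-miR-328 were higher on day 2 with little spread. ssc-miR-6782-3p stood at 21.4, 20.9 and 23.3 TPM on day 0 and at 31.8, 31.2 and 35.5 TPM on day 2. ssc-miR-328, from an intron of ELMO3 on its antisense strand (chr6:27844713-27844734, minus strand), went from 58.5, 53.6 and 61.5 TPM to 84.0, 78.9 and 86.4 TPM. Neither had a day 0 replicate that stood apart. Their log2 fold changes were 0.56 (SE 0.11) and 0.52 (SE 0.09), each with a limma adjusted p of 0.119, and DESeq2 gave adjusted p of 0.0568 and 0.0406, the second with a fold change under 1.5.

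Other miRNAs higher on day 2 under the rule for naming differed less. ssc-miR-708-3p from an intron of TENM4 had a log2 fold change of 0.45, and so had ssc-miR-1343 from an intron of PDHX. ssc-miR-218, encoded in introns of SLIT2 and SLIT3 and listed as 3 entries of equal values, stood at 28.0, 32.7 and 31.4 TPM on day 0 and at 45.7, 34.8 and 46.1 TPM on day 2 (log2 fold change 0.44, SE 0.15). Among new entries, novel_miR_484 had a log2 fold change of 0.60, novel_miR_927 of 0.50 and novel_miR_1008 of 0.38, the last at 0.437 to 0.934 TPM on day 0 and 1.10 to 1.17 TPM on day 2. The single exact copies of novel_miR_484 and novel_miR_927 lie in coding exons, of ACTN1 (chr7:92559662-92559684) and of COL6A3 (chr15:137051080-137051102), on the strand of the gene, while novel_miR_1008 has 1129 exact copies.

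For 9 of the 10 most abundant miRNAs the libraries of the days overlapped. The 10 leading entries held 91.8% to 92.5% of the reads in each library. ssc-miR-21-5p, an abundant miRNA of mesenchymal cells, had 574375 ± 39242 TPM on day 0 and 531377 ± 18777 TPM on day 2 (SD, n = 3 each), a log2 fold change of -0.11 (SE 0.15, limma adjusted p = 0.778). ssc-miR-148a-3p, reported to favour adipogenesis, had a log2 fold change of 0.29 (SE 0.19), and it was 0.18 without replicate 1 of IMF-0d and 0.45 without replicate 2. ssc-miR-143-3p had a log2 fold change of -0.02 (SE 0.15) and ssc-let-7i-5p of 0.14 (SE 0.16). For ssc-miR-100, ssc-miR-10b, ssc-miR-199b-5p and ssc-miR-151-3p the values were 0.05, 0.05, -0.01 and 0.31, with overlapping libraries in each. That of ssc-miR-151-3p was 0.51 without replicate 2 of IMF-0d and 0.18 without replicate 1 of IMF-2d. With TPM recomputed without ssc-miR-21-5p the median log2 fold change of all entries moved from 0.0149 to -0.098, and ssc-miR-100 and ssc-miR-10b then had -0.10 and -0.09.

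Lists of miRNAs with known roles were described by their members with ssc- names, read against the 9.07% of tested entries separated upwards and the 10.7% separated downwards. None of their members was called by limma. Without replicate 2 of IMF-0d the medians were -0.167 for the NF-κB list, -0.36 for the miR-17-92 list and -0.235 for the list that holds back adipogenesis, against -0.000412 over all entries. In the list of miRNAs induced by NF-κB, 5 of 6 tested entries were separated downwards (83.3%) and none upwards, with a median log2 fold change of -0.245 against 0.0149 over all entries. The 5 are ssc-miR-146b, ssc-miR-146a-5p and 3 entries of ssc-miR-9 with equal values (16.7 to 21.7 TPM on day 0 and 14.97 to 16.4 TPM on day 2), so that they stand for 3 molecules. With equal entries counted once, 3 of 4 molecules were separated downwards (75%) and the median was -0.304. The sixth, ssc-miR-155-5p, ranged from 292 to 508 TPM on day 0 and from 270 to 417 TPM on day 2.

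Of the miR-17-92 cluster and its paralogs, which promote entry into the cell cycle, 3 of 10 tested entries (30%) were separated downwards and none upwards, with a median of -0.232. They are ssc-miR-17-5p (log2 fold change -0.32), ssc-miR-106a (-0.62), which share a seed, and ssc-miR-18a (-0.45). ssc-miR-17-5p had 198, 167 and 167 TPM on day 0 and 124, 162 and 139 TPM on day 2. The most abundant member, ssc-miR-92a, overlapped, with 535 to 656 TPM on day 0 and 627 to 743 TPM on day 2.

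Among 26 tested miRNAs reported to hold back adipogenesis, 2 were separated upwards and 5 downwards (19.2%), with a median of -0.154. One of the 5, ssc-miR-138, had only 0 to 4 reads in any of the 6 libraries and passed the filter through other groups, and without it 4 of 25 were separated downwards (16%), with a median of -0.144. Those above were ssc-miR-27b-3p and ssc-let-7i-3p, the passenger arm of an abundant let-7, at 1.501 to 2.08 TPM on day 0 and 3.20 to 4.32 TPM on day 2. Those below were ssc-miR-224, ssc-miR-145-3p, ssc-miR-130a, ssc-miR-130b-3p, which shares the seed of ssc-miR-130a, and ssc-miR-138, which is given no fold. Among 26 tested miRNAs reported to favour adipogenesis, 1 was separated upwards (ssc-miR-148a-5p, 0.21) and 2 downwards (ssc-miR-146b and ssc-miR-17-5p), with a median of 0.0388, and the other 23 overlapped, the miR-30 family among them. The median of this list was -0.102 with TPM computed without ssc-miR-21-5p and -0.0639 without replicate 2 of IMF-0d, so its sign rests on these choices.

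Of 17 tested miRNAs linked to cell cycle arrest, 3 were separated upwards (ssc-miR-34a, ssc-miR-497 and ssc-miR-542-5p) and 1 downwards (ssc-miR-450c-5p). ssc-miR-34a, a target of p53, went from 82.0, 97.1 and 94.1 TPM to 98.2, 114 and 104 TPM. ssc-miR-132, which CREB drives when cAMP rises, was separated upwards, at 26.9 to 32.7 TPM on day 0 and 33.5 to 37.7 TPM on day 2, while its cluster partner ssc-miR-212 overlapped and had a log2 fold change of -0.38. In the list of matrix and smooth muscle miRNAs 1 of 14 was separated upwards (ssc-miR-214-3p, 0.31) and 1 downwards (ssc-miR-145-3p). No tested ssc- entry of the HOX cluster (6), brown fat (7), skeletal muscle (3) or blood and endothelial (3) lists was separated. The brown fat list also names miR-203, which is not among these 7. novel_miR_542, which has the letters of miR-203, was separated downwards (log2 fold change -0.97). The median of the HOX list was -0.031 with all libraries and 0.0101 without replicate 2 of IMF-0d. In the skeletal muscle list, ssc-miR-1 had 1253, 1707 and 885 TPM on day 0 and 788, 1040 and 945 TPM on day 2.

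**Figure D4:**
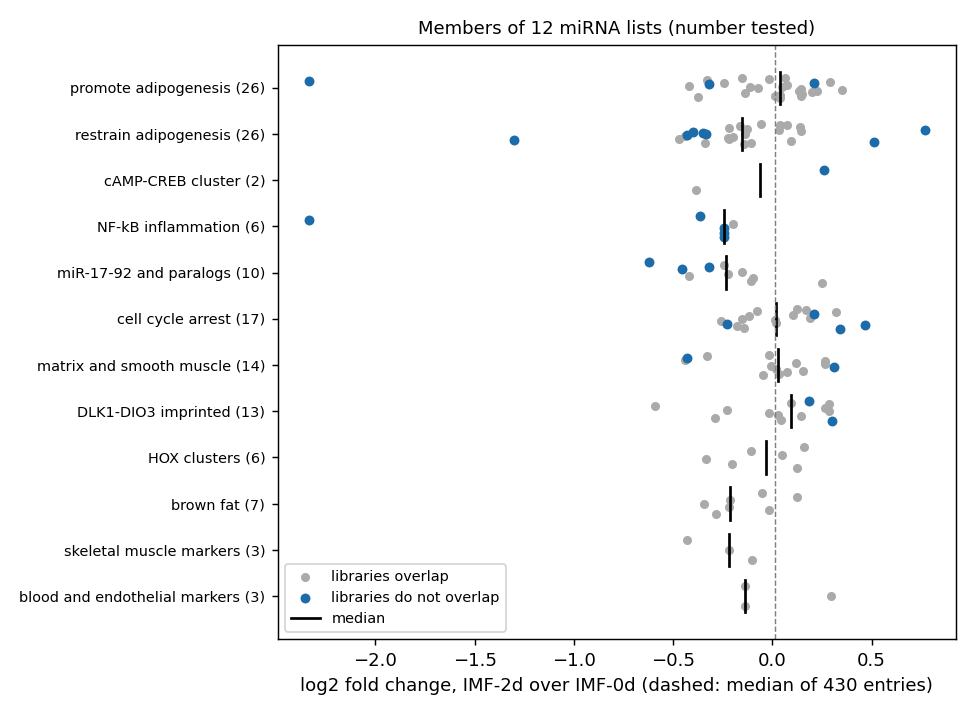
Log2 fold change from IMF-0d to IMF-2d of the tested members of 12 lists, 1 point per entry, blue where the libraries of the days do not overlap, with the list's median as a bar. The NF-κB list has 5 of 6 points in blue, all below 0, and most points of the other lists lie within 0.5 of the dashed median of all entries.

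Whether these changes were those of the subcutaneous cultures was tested by the interaction of source and day over 12 libraries (limma, FDR under 0.05, no fold change criterion). The 2 sources differed in this change for 19 of the 430 entries (4.42%), and 81 had an unadjusted p under 0.05. The number of calls depended on the libraries used: leaving out 1 of the 12 gave between 1 and 43. With the replicate number as a block, 4 calls were left, ssc-miR-146b (adjusted p = 0.0198), ssc-miR-224 (0.0198), ssc-miR-27b-3p (0.0276) and ssc-miR-210 (0.0456), and the other 15 had adjusted p from 0.0527 to 0.0889. The piglets may have given both tissues, and same-numbered libraries of IMF-0d and BF-0d did deviate together from their group means (r of 0.188, 0.509 and 0.205), while those of IMF-2d and BF-2d did not (0.112, -0.0258 and -0.00611). ssc-miR-146b was called in all 22 alternatives, ssc-miR-210 and ssc-miR-27b-3p in 15 of 22 each, and ssc-miR-224 in 9 of 21, with a log2 difference from -4.61 to -1.56. The largest difference was that of ssc-miR-146b, which was at 6.24, 3.85 and 4.45 TPM in BF-0d and at 5.08, 6.19 and 4.77 TPM in BF-2d. All 6 BF libraries thus lay below all 3 IMF-0d libraries, and the IMF change minus the BF change was -2.47 on the log2 scale (SE 0.33, adjusted p = 0.00607).

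For some of these entries the IMF libraries of both days lay close together and the BF libraries did not. ssc-miR-210, a target of the hypoxia factor HIF-1 and one of the miRNAs that the study discusses, was at 59.8, 76.9 and 67.0 TPM in IMF-0d and at 57.2, 66.3 and 60.1 TPM in IMF-2d. In BF it went from 18.0, 15.4 and 20.2 TPM to 83.1, 64.4 and 41.0 TPM. The log2 fold changes were -0.14 (SE 0.12) in IMF and 1.71 (SE 0.27) in BF, with an interaction adjusted p of 0.0275. ssc-miR-381-3p was at 16928, 23010 and 19029.5 TPM in IMF-0d and at 24937, 21987 and 24501 TPM in IMF-2d, against 3957 to 4839 TPM in BF-0d and 8101 to 13203 TPM in BF-2d. Its log2 fold changes were 0.29 and 1.32 (adjusted p of the difference 0.0460).

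ssc-miR-381-3p belongs to the DLK1-DIO3 region, which holds a maternally expressed miRNA cluster. It was the only ssc- entry of the list for this region that the interaction test called. The 13 tested entries of the list had a median log2 fold change of 0.0954 in IMF (-0.0416 with TPM computed without ssc-miR-21-5p), with 2 separated upwards (ssc-miR-127, 0.19, and ssc-miR-758, 0.30), and of 0.896 in BF, where the median over all entries was 0.0105. The members ranged from -0.59 to 0.30 in IMF, 4 of them below 0, and from 0.35 to 1.34 in BF, all 13 above 0. Among those below 0 in IMF, ssc-miR-299 stood at 12.9, 16.1 and 9.14 TPM on day 0 and at 8.89, 9.45 and 5.83 TPM on day 2. ssc-miR-370 overlapped as well, at 133 to 289 TPM on day 0 and 169 to 179 TPM on day 2. The interaction test also called novel_miR_461 and novel_miR_716, with the letters of miR-409-3p and miR-495. The list names miR-409 and miR-495, but these entries lack ssc- names and are not among its 13. Their log2 fold changes were -0.32 and -0.09 in IMF and 1.17 and 1.01 in BF. Both were higher in every IMF-0d library than in any BF-0d library, novel_miR_461 at 213 to 271 against 42.2 to 57.3 TPM.

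For a second set of entries the changes had opposite signs. ssc-miR-27b-3p was at 14497 to 15651 TPM in BF-0d and at 9721 to 10905 TPM in BF-2d, so that it was lower on day 2 in BF (log2 fold change -0.54) and higher in IMF (0.51), with an interaction adjusted p of 0.0329. ssc-miR-23b and ssc-miR-23a had -0.46 and -0.44 in BF against 0.42 and 0.29 in IMF. ssc-miR-491 from an intron of FOCAD had -0.34 in BF and 0.70 in IMF, at 2.18 to 2.52 TPM in IMF-0d and 3.60 to 5.13 TPM in IMF-2d. ssc-miR-224, ssc-miR-106a and ssc-miR-500-5p were lower on day 2 in IMF (-1.30, -0.62 and -0.35) and had values above 0 in BF (0.47, 0.51 and 0.68).

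Changes in the same direction in both sources were found too. novel_miR_542 had a log2 fold change of -0.97 in IMF and -0.95 in BF, and the difference of -0.02 had an SE of 0.20. ssc-miR-129b had 0.73 in IMF and 1.64 in BF (interaction adjusted p = 0.272), and ssc-miR-708-3p had 0.45 and 0.42. ssc-miR-145-5p had -0.44 and -0.46, the first with the range over single libraries given above. The test did not call any of these, which does not show that the sources changed alike.

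**Figure D5:**
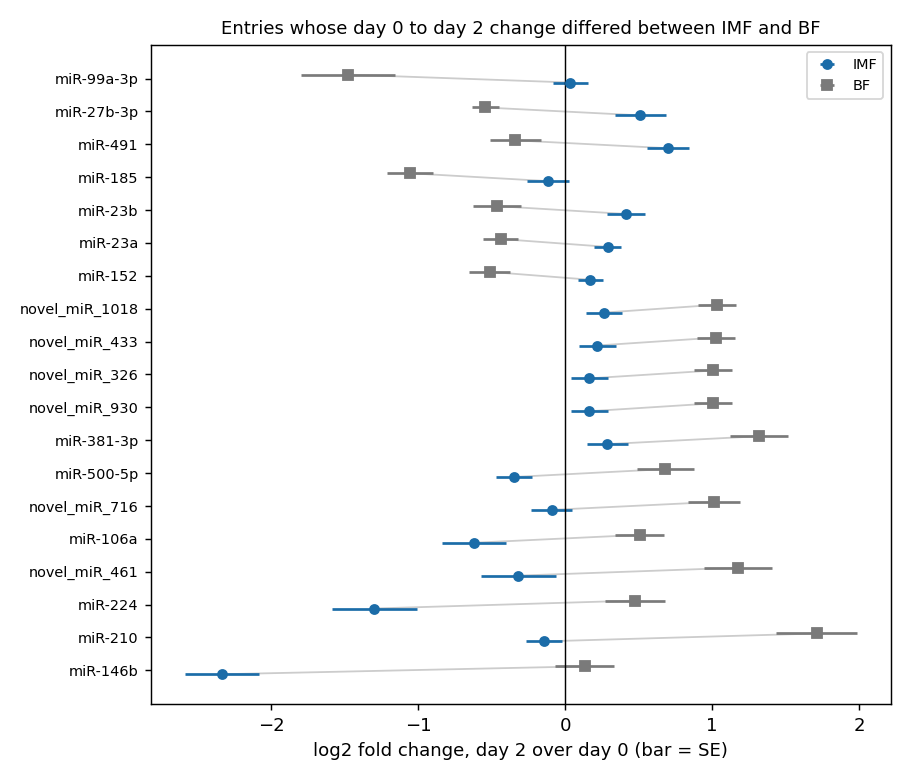
Log2 fold change from day 0 to day 2 in IMF (blue circles) and BF (grey squares) for the 19 entries whose change differed between the sources, with bars of 1 SE. ssc-miR-146b has -2.34 in IMF and 0.13 in BF, and ssc-miR-210 has -0.14 in IMF and 1.71 in BF.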

How the data were processed

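Small RNA libraries of IMF and BF adipocytes were sequenced as single-end reads of 50 nt. According to the methods of the study and the submitters' processing notes, the authors mapped clean reads to Sscrofa11.1 with Bowtie, took known miRNAs from miRBase, predicted new ones with miRDeep2 and used DESeq2. The deposited values, named TPM by the authors, are RPM, reads per 1000000 reads counted on miRNAs. All 38088 values lay within 0.000569 of a whole number of reads, which were recovered for count tests. The 1587 entries are not all distinct molecules, and 24 of the 430 tested share all values with another entry.

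The fit was limma 3.58.1 (eBayes with trend, R 4.3.3) on log2(TPM + 1) of the 6 IMF libraries, for entries whose mean over the 24 libraries reached 1 TPM. This scale understates changes at low values. DE-miRNAs were called at a fold change over 1.5 and an FDR (Benjamini-Hochberg) below 0.05. The interaction was fitted over the 12 IMF and BF libraries of day 0 and day 2. Alternatives were edgeR 4.0.16 and DESeq2 1.42.0 on whole reads, no filter, a filter at 10 TPM, a pseudocount of 0.1, 1 fit of all 24 libraries, the replicate block, other scalings, identical entries counted once, and leaving out each library. Scripts were tested on simulated data. Libraries within a group differed by more than counting error (chi-square per degree of freedom at least 75.9).

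Named are the 8 largest rises and falls among separated known entries whose mean reached 10 TPM, the 3 largest of new entries in each direction, the 10 most abundant, entries called by any tool, the 10 smallest interaction p-values, list members and 3 miRNAs that the study discusses. ssc-miR-23b, ssc-miR-452, ssc-miR-185, ssc-miR-152, ssc-miR-491, ssc-miR-500-5p, ssc-miR-99a-3p, novel_miR_461 and 6 entries that limma called without replicate 2 of IMF-0d were named after their values were seen. The members and lists were chosen with earlier results of these data known. Positions and exons are those of RefSeq on Sscrofa11.1, and sequences those that the study lists.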

Additional observations from a re-analysis of the deposited data

Results flagged for a closer look

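By the limma interaction test, IMF and BF differed in their day 0 to day 2 change for 19 entries. Each difference is the IMF log2 fold change minus the BF log2 fold change. Differences below 0 were found for ssc-miR-146b (-2.47), ssc-miR-210 (-1.85), ssc-miR-224 (-1.77), novel_miR_461 (-1.49), ssc-miR-106a (-1.13), novel_miR_716 (-1.11), ssc-miR-381-3p (-1.03) and ssc-miR-500-5p (-1.03). The 4 new entries with one mature sequence had -0.843 (novel_miR_326), -0.843 (novel_miR_930), -0.809 (novel_miR_433) and -0.771 (novel_miR_1018), and count as 1 molecule.

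Differences above 0 were found for ssc-miR-99a-3p (1.51), ssc-miR-27b-3p (1.06), ssc-miR-491 (1.04), ssc-miR-185 (0.94), ssc-miR-23b (0.881), ssc-miR-23a (0.728) and ssc-miR-152 (0.686). ssc-miR-185 stood at 397 to 541 TPM in IMF-0d and 385 to 454 TPM in IMF-2d, against 689 to 868 TPM in BF-0d and 332 to 425 TPM in BF-2d. ssc-miR-152, which shares its seed with ssc-miR-148a-3p, had log2 fold changes of 0.17 in IMF and -0.51 in BF. ssc-miR-99a-3p was at 1.20 to 1.75 TPM in all 6 IMF libraries.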

How the results depend on the processing

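The count of 0 DE-miRNAs by limma stayed at 0 without the filter, with TPM computed without ssc-miR-21-5p, with identical entries counted once, and with the FDR criterion alone. It was 2 with a pseudocount of 0.1, 2 with a mean of at least 10 TPM, 2 with median-of-ratios scaling, 5 in 1 fit of all 24 libraries, 7 with edgeR and 9 with DESeq2, and 0 to 12 without single libraries (12 without replicate 2 of IMF-0d, 0 for the other 5). The count of 85 separated entries became 156 without the filter and 42 with a mean of at least 10 TPM, where fewer entries are tested, and 112 to 160 without single libraries, where fewer libraries must be separated. The 19 interaction calls became 12 with a pseudocount of 0.1, 4 without the filter, 11 with a mean of at least 10 TPM, 10 in 1 fit of all 24 libraries, 30 with edgeR, 29 with DESeq2, and 1 to 43 without single libraries (43 without replicate 3 of BF-2d, and 1 without replicate 2 of IMF-0d, replicate 1 of IMF-2d, replicate 3 of BF-0d or replicate 1 of BF-2d). The cause of these moves was not tested.

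Same-numbered libraries of IMF-0d and IMF-2d did not deviate together from their group means (correlations of -0.0838, 0.078 and -0.0204), so the numbers were not taken as pairs in that comparison, where limma with the replicate block called 0 DE-miRNAs. Over the 4 groups of the interaction, 1 of 6 pairs of groups (IMF-0d and BF-0d) had all 3 same-numbered correlations above 0.1, and the replicate block gave 4 interaction calls. Whether the numbers mark piglets is not given in the labels.

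Of 643 values of named log2 fold changes under alternatives, 595 kept direction and call, 32 passed the threshold that the reported value missed and 16 changed sign, all with adjusted p above 0.7. The sign changed for ssc-miR-100 (-0.0951 without ssc-miR-21-5p in the total, -0.0184 with edgeR) and ssc-miR-10b (-0.0948 without ssc-miR-21-5p, -0.0742 with edgeR, -0.0152 with DESeq2). Without single libraries the range spanned 0 for ssc-miR-10b (-0.168 to 0.329), ssc-miR-143-3p (-0.127 to 0.0935), ssc-miR-199b-5p (-0.0497 to 0.0812), ssc-let-7i-5p (-0.00873 to 0.23, below 0 without replicate 2 of IMF-0d) and novel_miR_716 (-0.176 to 0.0207, above 0 without that library). Leaving out 1 library moved the log2 fold change by over 1.5 times for 18 of the 41 named entries, among them ssc-miR-130a (-0.476 to -0.264), ssc-miR-18a (-0.581 to -0.299), ssc-miR-381-3p (0.184 to 0.405), ssc-miR-210 (-0.229 to -0.0494) and ssc-miR-21-5p (-0.167 to -0.0725). All 409 values of the 19 interaction differences kept their direction, and 245 missed the threshold.

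With 3 libraries a group and 1 read worth about 0.1 TPM, changes of entries near 1 TPM rest on about 10 reads, and a permutation test of 3 against 3 libraries cannot go below p = 0.1.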
